A study of Mus musculus with 32 samples.

Results

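The tRNA loci described here are those for valine, isoleucine and threonine, the amino acids whose side chain branches at the beta carbon. They were taken by name, as every locus whose name in the tables of tRNA loci begins with tRNA-Val-, tRNA-Ile- or tRNA-Thr-, which gave 52 loci beside 349 loci for all other amino acids. Valine had 20 loci, with 7 for the anticodon AAC, 10 for CAC and 3 for TAC. Isoleucine had 15, of which 11 carry AAT and 4 carry TAT, and threonine had 17, with 9 for AGT, 4 for CGT and 4 for TGT. In a name such as tRNA-Ile-AAT-1-4, the first number is the isodecoder family, whose members encode the same mature tRNA, and the second number is the gene copy.

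Chromatin accessibility was measured by ATAC-seq, where a transposase inserts sequencing adapters into accessible DNA. The tissues were brain and liver of male C57BL/6N mice that were 10 weeks old. Wild-type mice were compared with littermate and age-matched mice homozygous for a CRISPR-Cas9 deletion of 1 phenylalanine tRNA gene. The lines were Phe11 (tRNA-Phe-GAA-1-1 deleted), Phe21 (tRNA-Phe-GAA-2-1 deleted) and Phe31 (tRNA-Phe-GAA-3-1 deleted). The 32 libraries were from 5 brains and 7 livers of wild-type mice, 4 brains and 4 livers of Phe11, and 3 of each tissue for Phe21 and for Phe31. Nuclei came from whole tissue, so that several cell types contribute to every value.

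Transfer RNA genes are transcribed by RNA polymerase III from promoter elements that lie inside the gene, the A box and the B box, and a gene in use sits in open chromatin. Valine, isoleucine and threonine are each read by more than 1 anticodon. In the AAC, AAT and AGT tRNAs the first anticodon base is an adenosine that the cell converts to inosine, which lets 1 tRNA read several codons, and the TAT tRNA of isoleucine reads the codon ATA. The isoleucine tRNA genes with the anticodon TAT carry an intron that is spliced out after transcription.

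Copies within a family can be told apart only by the DNA around them or in their intron, so the sequences of several families that the results turn on are shown first. A search of the mouse genome for tRNA genes by base pairing found 50 genes with these anticodons against 52 loci in the tables (9 of 10 for Val-CAC and 8 of 9 for Thr-AGT). The tables give no coordinates, and a family was matched to a sequence only where the number of identical copies fitted 1 family and 1 sequence. Coordinates are on GRCm39, not the authors' GRCm38.p6, and capitals mark the anticodon.
Thr-AGT-1, 3 identical copies (2 on chromosome 11 and 1 on 7): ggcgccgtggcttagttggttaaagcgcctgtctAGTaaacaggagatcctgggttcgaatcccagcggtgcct
Val-CAC-2, 5 identical copies (2 on chromosome 13 and 1 each on 1, 3 and 11): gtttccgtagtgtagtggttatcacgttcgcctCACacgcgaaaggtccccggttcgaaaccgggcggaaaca
Thr-TGT-3, 2 identical copies (chromosomes 11 and 14): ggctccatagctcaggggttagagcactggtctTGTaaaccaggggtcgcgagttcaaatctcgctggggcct

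The 3 genes of family Ile-TAT-2 encode 1 mature sequence but differ in their introns, of 22, 20 and 19 nt, which start 1 base after the anticodon. The whole gene is therefore printed for each, followed by the only gene of Ile-TAT-1, whose mature sequence differs from theirs at 1 position of 74. Which of the 3 genes is copy 2-1, 2-2 or 2-3 is not known from the files.
chr13:23454591-23454686, minus strand, intergenic: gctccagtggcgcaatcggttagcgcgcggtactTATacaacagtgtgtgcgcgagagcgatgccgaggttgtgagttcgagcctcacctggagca
chr13:22081108-22081201, minus strand, in an exon of Gm40830: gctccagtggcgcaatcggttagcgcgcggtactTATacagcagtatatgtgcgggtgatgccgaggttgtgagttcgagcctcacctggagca
chr17:84169373-84169465, plus strand, intergenic: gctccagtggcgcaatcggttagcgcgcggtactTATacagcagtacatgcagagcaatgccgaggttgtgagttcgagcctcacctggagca
chr7:28072424-28072518, plus strand, in an exon of Gm57221 (Ile-TAT-1): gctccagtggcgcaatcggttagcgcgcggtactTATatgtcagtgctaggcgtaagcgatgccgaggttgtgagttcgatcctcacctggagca
By the GENCODE vM39 annotation, 28 of the 50 genes found are intergenic, 15 lie in an intron and 7 in an exon of another annotated gene. Of the 55 RefSeq genes for these tRNAs on GRCm38.p6, 25 are on chromosome 13, the chromosome with the most of them.

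The brain libraries held 20315 to 35565 reads over all tRNA loci and the liver libraries 4719 to 23754. The targeted locus was at 34% of wild type in Phe11 brain, 14% in Phe11 liver, 7.02% and 6.83% in Phe21 brain and liver, and 4.82% in Phe31 brain. In the livers labelled Phe31, tRNA-Phe-GAA-3-1 was at 75.4% and tRNA-Phe-GAA-1-1 at 9.95% of wild type, so their labels and data do not match and they are called the libraries labelled Phe31. The brain-enriched locus tRNA-Arg-TCT-4-1 had 66.9 to 98.1 reads per 10000 in the 15 brains and 0.538 to 14.3 in the 17 livers. Wild-type liver replicates 1 and 22 differed by less than the sampling noise (chi-square per degree of freedom 0.440) and were counted as 1 sample in every mean. The next lowest values were 0.741 for wild-type brains 3 and 18, 0.744 for wild-type livers 3 and 24, and 0.765 for Phe11 livers 6 and 20. These were also below the sampling noise, and the libraries were kept as separate samples.

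In wild-type mice the ranges of brain and of liver in batches 1 and 2 overlapped for the 52 loci together, but not for both isoleucine anticodons, Thr-CGT and Val-TAC. The 52 loci together held 14.3% ± 0.313 of the reads over all tRNA loci in brain (SD, n = 5) and 13.9% ± 0.570 in liver of batches 1 and 2 (SD, n = 3), where the batches are those the labels give. Ile-AAT held 2.22% ± 0.0578 in brain and 3.19% ± 0.135 in liver, while Ile-TAT held 2.75% ± 0.221 in brain and 2.13% ± 0.138 in liver. The ranges of brain and liver did not overlap for either anticodon, and their order was opposite. Thr-CGT held 2.08% ± 0.0978 in brain and 1.43% ± 0.192 in liver, and Val-TAC held 0.958% ± 0.0293 and 0.757% ± 0.0988, again without overlap. The other 4 anticodons, Thr-AGT, Thr-TGT, Val-AAC and Val-CAC, had overlapping ranges in brain and liver of batches 1 and 2. In the 3 wild-type livers of batch 3, which have no brain of their batch, the 52 loci held 13.1% ± 0.326, with a range of 12.7% to 13.4% that lay wholly below that of brain, 14% to 14.8%. In these livers Ile-TAT at 1.97% ± 0.0753 also lay below brain, Ile-AAT at 2.41% ± 0.226 overlapped brain, as did Thr-CGT at 1.75% ± 0.235, and Val-TAC at 1.04% ± 0.0570 lay above brain. Thr-AGT at 2.03% ± 0.244 and Val-CAC at 1.10% ± 0.112 lay wholly below brain there. Thr-TGT at 1.44% ± 0.174 and Val-AAC at 1.33% ± 0.0986 overlapped brain.

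The levels of single loci differed widely within an anticodon. The windows counted are the gene and 50 nt on each side. RefSeq genes are 72 to 74 nt for threonine and 72 to 73 nt for valine, but 73 to 96 nt for isoleucine, where Ile-TAT genes carry an intron. Reads per 10000 are compared between loci without dividing by length. This favours Ile-TAT loci somewhat, and their order against loci of near level is not read. In brain the highest were tRNA-Thr-CGT-1-1 with 109 ± 9.34, tRNA-Thr-AGT-1-1 with 107 ± 4.89 and tRNA-Ile-TAT-2-3 with 100.3 ± 4.74 reads per 10000 (SD, n = 5). These 3 do not differ beyond their spread. In liver the highest were tRNA-Ile-AAT-1-3 with 117 ± 15.8 and tRNA-Ile-TAT-2-3 with 116 ± 2.63, again not apart beyond the spread, followed by tRNA-Ile-TAT-1-1 with 82.8 ± 4.67 and tRNA-Thr-CGT-1-1 with 81.9 ± 15.1 (SD, n = 3). The highest valine loci were lower in both tissues, with tRNA-Val-TAC-1-1 at 43.3 ± 4.89 and tRNA-Val-CAC-2-5 at 42.7 ± 6.21 in brain, and tRNA-Val-AAC-1-1 at 51.2 ± 4.87 in liver. tRNA-Val-CAC-2-3, at 36.7 ± 6.53, and tRNA-Val-TAC-1-3, at 28.5 ± 7.17, had the highest mean of their anticodons in liver. The lead of tRNA-Val-TAC-1-3 over tRNA-Val-TAC-1-1, at 24.9 ± 2.85, lay within the spread. tRNA-Thr-TGT-3-1 had the highest mean of its anticodon in both tissues, at 51.5 ± 4.14 in brain and 51.5 ± 11.3 in liver. In liver its lead over tRNA-Thr-TGT-3-2, at 42.0 ± 5.40, lay within the spread. At the other end, tRNA-Val-CAC-4-1, tRNA-Val-CAC-7-1, tRNA-Ile-AAT-2-1, tRNA-Ile-AAT-4-1 and tRNA-Thr-AGT-7-1 had 0.418 to 0.706 reads per 10000 in wild-type brain, but no member had 0 reads in all libraries of a tissue.

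**Figure D1:**
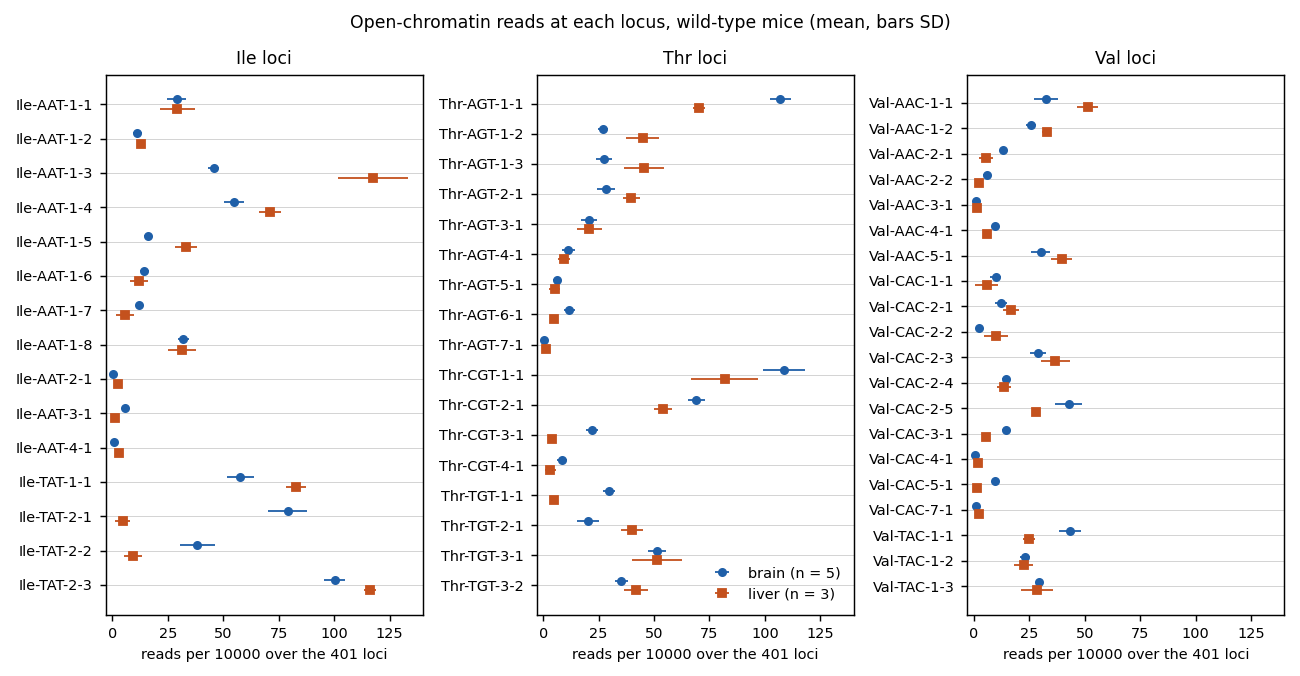
Reads per 10000 over all tRNA loci at each of the 52 loci in wild-type mice, with brain as circles (n = 5) and liver of batches 1 and 2 as squares (n = 3, replicates 1 and 22 counted once). Points are means and bars SD. tRNA-Ile-TAT-2-1 stands at 79.0 in brain and 4.74 in liver, and tRNA-Ile-AAT-1-3 at 45.6 in brain and 117 in liver.

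Copies of 1 mature tRNA differed in their level within a tissue. Among the 8 identical genes of Ile-AAT-1, the mean ranged 4.90-fold in brain, from tRNA-Ile-AAT-1-2 to tRNA-Ile-AAT-1-4, and 21.1-fold in liver, from tRNA-Ile-AAT-1-7 to tRNA-Ile-AAT-1-3. In Ile-TAT-2 it ranged 2.62-fold in brain and 24.5-fold in liver, and in Val-CAC-2 18-fold in brain and 3.69-fold in liver. The liver folds rest on few reads at the lowest copy and on single libraries. That of Ile-TAT-2 was 40.2 without liver replicate 1, at which copy 2-1 was highest, and that of Ile-AAT-1 was 37.0 without liver replicate 3, while the other livers left out singly gave 17.4 to 24.2 over both families, a check added after the data were seen. The 3 copies of Val-TAC-1 were the most even in this respect in liver among families of 3 or more, at 1.27-fold. A fragment that lies wholly inside an identical gene body matches every copy. The authors' filter on a mapping quality of at least 30 works against such fragments, so a copy's value may rest mainly on fragments that reach its flank or intron. Loci without an identical copy have no such limit, and the part of this in the levels was not tested. The values of single copies stay uncertain to the extent that shared fragments were counted.

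Between wild-type brain and liver, 29 of 43 members tested passed an adjusted p of 0.05 in edgeR's quasi-likelihood test, 14 higher in brain and 15 higher in liver, beside 70.4% of all 247 loci tested (37.2% higher in brain and 33.2% higher in liver). The filter took the mean over both tissues, so 14 of the 43 members were tested through brain alone, with a mean under 10 reads in liver, and the 10 of them that passed were all higher in brain, so the split between the tissues is partly set by the filter. These 10 were tRNA-Ile-TAT-2-1, tRNA-Ile-TAT-2-2, tRNA-Ile-AAT-1-7, tRNA-Thr-TGT-1-1, tRNA-Thr-CGT-3-1, tRNA-Thr-CGT-4-1, tRNA-Thr-AGT-6-1, tRNA-Val-CAC-3-1, tRNA-Val-CAC-5-1 and tRNA-Val-AAC-2-1. Each also passed in the edgeR fit with no filter. The median log2 difference, brain over liver, was -0.12 for the members and 0.07 for all loci tested. By amino acid, 8 of 12 isoleucine, 11 of 16 threonine and 10 of 15 valine loci passed. With libraries scaled to equal totals, the split was 16 members higher in brain and 11 in liver beside 106 and 64 of all loci, and the median was 0.02 for the members and 0.21 for all loci.

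The largest difference of a member was at tRNA-Ile-TAT-2-1, a gene for the ATA-reading tRNA. It had 84.7, 91.0, 77.3, 69.8 and 72.1 reads per 10000 in wild-type brain replicates 1, 2, 3, 16 and 18. In liver it had 14, 2.53, 3.23 and 3.08 in replicates 1, 3, 22 and 24. Every brain was far above every liver, and liver replicate 1 stood above the other livers. The log2 difference was 3.54 ± 0.22 (SE; adjusted p = 1.42e-17, edgeR), from 933 reads in brain and 20 in liver, and 4.50 ± 0.27 without liver replicate 1. The locus was tested through brain alone.

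Its copy tRNA-Ile-TAT-2-2 had 38.3 ± 7.81 reads per 10000 in brain and 9.42 ± 4.00 in liver, a log2 difference of 1.70 ± 0.24 (SE; adjusted p = 5.68e-08, edgeR), and was likewise tested through brain alone. The third copy of the same mature tRNA, tRNA-Ile-TAT-2-3, went the other way, with 100.3 ± 4.74 in brain and 116 ± 2.63 in liver (log2 difference -0.35 ± 0.08, adjusted p = 1.72e-04, edgeR). That call was lost against the livers of batch 3, where the copy had 95.1 ± 17. In liver, tRNA-Ile-TAT-2-3 and tRNA-Ile-TAT-1-1, at 82.8 ± 4.67 against 57.8 ± 6.06 in brain (log2 difference -0.68 ± 0.10, adjusted p = 2.79e-07, edgeR), carried most of the Ile-TAT signal.

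The threonine and valine loci with the largest excess in brain were tested through brain alone, with few reads in liver. tRNA-Thr-TGT-1-1 had 29.7 ± 2.58 reads per 10000 in brain and 4.82 ± 1.48 in liver (log2 difference 2.56 ± 0.26, adjusted p = 3.50e-11, edgeR). tRNA-Thr-CGT-3-1 had 22.0 ± 2.60 and 3.83 ± 1.18 (log2 difference 2.23 ± 0.29, adjusted p = 1.65e-08), and tRNA-Val-CAC-5-1 had 9.67 ± 1.60 and 1.47 ± 0.518 (2.49 ± 0.54, adjusted p = 1.11e-04). The liver values of these loci rest on 15, 14 and 5 reads over 4 libraries. The log2 differences of the other members tested through brain alone and called were 1.35 at tRNA-Thr-CGT-4-1, 1.26 at tRNA-Val-CAC-3-1, 1.14 at tRNA-Thr-AGT-6-1, 1.07 at tRNA-Ile-AAT-1-7 and 0.88 at tRNA-Val-AAC-2-1. tRNA-Val-TAC-1-1, with at least 10 reads on average in both tissues, had 0.60. In this fit wild-type livers 1 and 22 were 2 libraries. With both as 1 sample 28 members passed, and the call of tRNA-Thr-CGT-4-1 was lost (adjusted p = 0.0549, edgeR). That call was also lost without brain replicate 18 (adjusted p = 0.0580), liver replicate 1 (0.0555) or liver replicate 22 (0.0656), and that of tRNA-Val-AAC-2-1 without liver replicate 3 (0.0990) or 24 (0.0713).

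The Ile-AAT-1 family held the largest excess in liver. tRNA-Ile-AAT-1-3 had 46.5, 48.3, 43.8, 42.3 and 47.0 reads per 10000 in brain replicates 1, 2, 3, 16 and 18. In liver replicates 1, 3, 22 and 24 it had 129, 109, 142 and 108. Every liver lay far above every brain, with a log2 difference of -1.54 ± 0.10 (SE; adjusted p = 2.69e-17, edgeR). tRNA-Ile-AAT-1-5 had 15.9 ± 1.61 in brain and 33.3 ± 5.02 in liver (log2 difference -1.18 ± 0.17, adjusted p = 1.94e-07, edgeR). In the same family copies 1-1, 1-2, 1-6 and 1-8 did not pass the test. tRNA-Ile-AAT-1-4 depended on the livers used, with a log2 difference of -0.46 ± 0.11 (adjusted p = 3.95e-04, edgeR) against batches 1 and 2 and 0.35 against batch 3.

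Outside this family, tRNA-Thr-TGT-2-1 had 20.3 ± 5.03 reads per 10000 in brain and 39.9 ± 4.93 in liver (log2 difference -1.16 ± 0.17, adjusted p = 2.26e-07, edgeR). tRNA-Val-AAC-1-1 had 32.6 ± 5.48 and 51.2 ± 4.87 (-0.83 ± 0.14, adjusted p = 2.48e-06). In Thr-AGT-1, copy 1-1 was higher in brain (107 ± 4.89 against 70.2 ± 2.67, log2 difference 0.47) and copies 1-2 and 1-3 were higher in liver (-0.87 and -0.93), calls that were lost against the livers of batch 3 (-0.07 and -0.32). Further liver-high members were tRNA-Thr-AGT-2-1 (-0.63), tRNA-Val-CAC-2-1 (-0.61) and tRNA-Val-AAC-5-1 (-0.53). Of these calls, that of tRNA-Val-CAC-2-1 was lost without brain replicate 3 (adjusted p = 0.0507), brain replicate 16 (0.0516) or liver replicate 22 (0.104). That of tRNA-Val-CAC-2-3 (-0.43) was lost without brain replicate 16 (0.0834), liver replicate 3 (0.0739) or liver replicate 24 (0.0875). For tRNA-Val-CAC-2-1 and tRNA-Val-CAC-2-3 the calls were also lost in edgeR with equal library totals (adjusted p = 0.0741 and 0.0934) and with no filter (0.0558 and 0.0752). Against the livers of batch 3 they were lost too, at -0.37 (0.276) and -0.07 (0.756). That of tRNA-Thr-CGT-1-1 (0.33) was lost without liver replicate 1 (0.191), and its difference was -0.14 against the livers of batch 3.

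**Figure D2:**
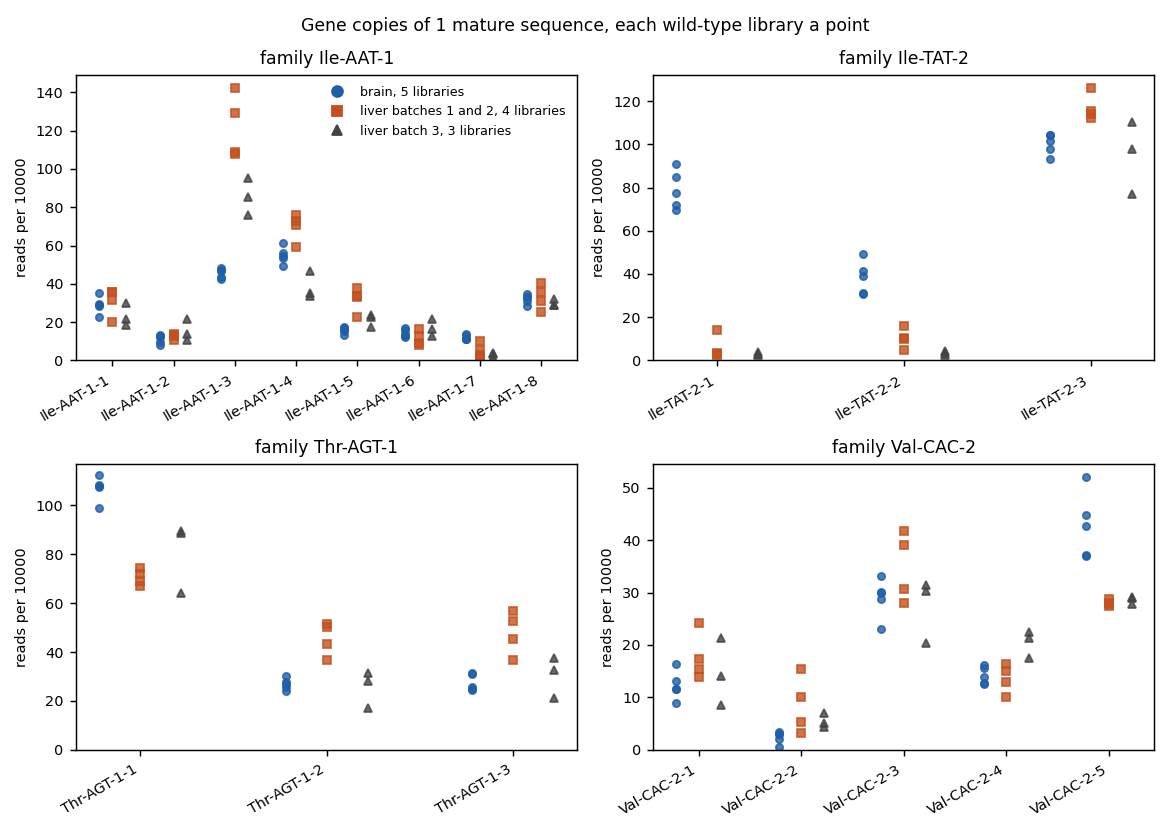
Reads per 10000 at each gene copy of 4 families with 1 mature sequence each, every wild-type library a point (circles, 5 brains; squares, 4 livers of batches 1 and 2; triangles, 3 livers of batch 3). In Ile-TAT-2 the livers lie well below the brains at copies 2-1 and 2-2 and near the level of brain at copy 2-3.

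In Phe11 brain most members did not pass the test. Of 45 members tested, 13 passed an adjusted p of 0.05 in limma, 9 higher and 4 lower, beside 28.1% of all 263 loci tested (14.8% higher and 13.3% lower), so the share of members called, 28.9%, was near the background. The 9 higher members were 5 of 16 valine loci, 3 of 13 isoleucine loci and 1 of 16 threonine loci, and the 4 lower ones were threonine loci, of which loess scaling along the level and DESeq2 each left 1. The median log2 change was 0.03 for the members and -0.01 for all loci tested. Members with an anticodon beginning with A were 6 higher and 2 lower of 23, the others 3 higher and 2 lower of 22, and loci of this kind for other amino acids 9 higher and 5 lower of 34.

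The largest change was at tRNA-Val-CAC-1-1, a gene for the tRNA that reads the valine codon GTG. Its normalised count, the reads divided by the library's size factor, was 21.8, 29.4, 18.3 and 24.3 in wild-type replicates 1, 3, 16 and 18. In Phe11 replicates 5, 6, 13 and 14 it was 41.8, 48.0, 53.1 and 43.9. All Phe11 brains were above all wild-type brains, at 199% of the wild-type mean (log2 change 0.98 ± 0.16, SE; adjusted p = 3.82e-05, limma; exact permutation p = 0.0286, the smallest that 4 against 4 libraries allow).

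The other valine loci that rose were tRNA-Val-CAC-2-4 (156% of wild type, log2 change 0.62 ± 0.13, adjusted p = 7.62e-04, limma), tRNA-Val-AAC-4-1 (146%, 0.54), tRNA-Val-AAC-2-1 (140%, 0.46) and tRNA-Val-AAC-5-1 (131%, 0.38). For tRNA-Val-CAC-2-4 the wild-type brains had 32.7 to 40.5 and the Phe11 brains 45.2 to 65.0. The groups did not overlap at these loci except at tRNA-Val-AAC-5-1, where Phe11 replicate 13, with 84.2, lay below wild-type replicate 3, with 89.5.

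Among isoleucine loci, tRNA-Ile-AAT-1-7 had 29.4, 35.8, 29.0 and 29.0 in wild-type replicates 1, 3, 16 and 18 and 46.7, 52.6, 55.2 and 38.6 in Phe11 replicates 5, 6, 13 and 14 (157%, log2 change 0.62 ± 0.15, adjusted p = 0.00163, limma). Its identical copy tRNA-Ile-AAT-1-6 was at 145% (0.52 ± 0.14, adjusted p = 0.00607, limma), and the other copies of the family did not pass, with tRNA-Ile-AAT-1-4 at 102% and tRNA-Ile-AAT-1-5 at 118%. tRNA-Ile-TAT-2-2 had 79.6 to 107 in wild type and 117 to 137 in Phe11 (140%, log2 change 0.49 ± 0.10, adjusted p = 5.46e-04, limma). At none of these 3 called loci did the groups overlap.

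Of the 4 threonine loci that fell, tRNA-Thr-CGT-1-1, tRNA-Thr-CGT-2-1 and tRNA-Thr-AGT-1-1 had a level above the median member and tRNA-Thr-AGT-3-1, with a wild-type mean of 54.6, a level below it. tRNA-Thr-CGT-1-1 had 312, 271, 269 and 256 in wild-type replicates 1, 3, 16 and 18 and 224, 246, 231 and 225 in Phe11 replicates 5, 6, 13 and 14. All Phe11 brains were below all wild-type brains, at 83.5% of the wild-type mean (log2 change -0.26 ± 0.06, SE; adjusted p = 0.00114, limma). tRNA-Thr-CGT-2-1 was at 84.4% (-0.24 ± 0.07, adjusted p = 0.00960), without overlap, while tRNA-Thr-AGT-3-1, at 70.0% (-0.55 ± 0.18, adjusted p = 0.0200), and tRNA-Thr-AGT-1-1, at 90.4% (-0.14 ± 0.05, adjusted p = 0.0421), overlapped with wild type. After a loess scaling that follows the level, the log2 changes were -0.12 at tRNA-Thr-CGT-1-1 (adjusted p = 0.115, limma), -0.15 at tRNA-Thr-CGT-2-1 (0.142) and -0.0046 at tRNA-Thr-AGT-1-1 (0.960), so these 3 calls were lost. DESeq2 did not call tRNA-Thr-CGT-2-1 (adjusted p = 0.106), tRNA-Thr-AGT-3-1 (0.276) or tRNA-Thr-AGT-1-1 (0.282). Limma without a trend did not call tRNA-Thr-AGT-3-1 (adjusted p = 0.162) or tRNA-Thr-AGT-1-1 (0.184). The call of tRNA-Thr-AGT-1-1 was also lost in edgeR (0.0757). In limma it was lost with no filter (0.0743), equal library totals (0.142) or TMM scaling that leaves out the tRNA-Phe loci (0.0621). The only threonine locus that rose was tRNA-Thr-AGT-5-1, the lowest of the 13, with 14.7 ± 3.39 in wild type and 23.9 ± 6.23 in Phe11 (SD, n = 4; 162%, log2 change 0.66 ± 0.24, adjusted p = 0.0414, limma).

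**Figure D3:**
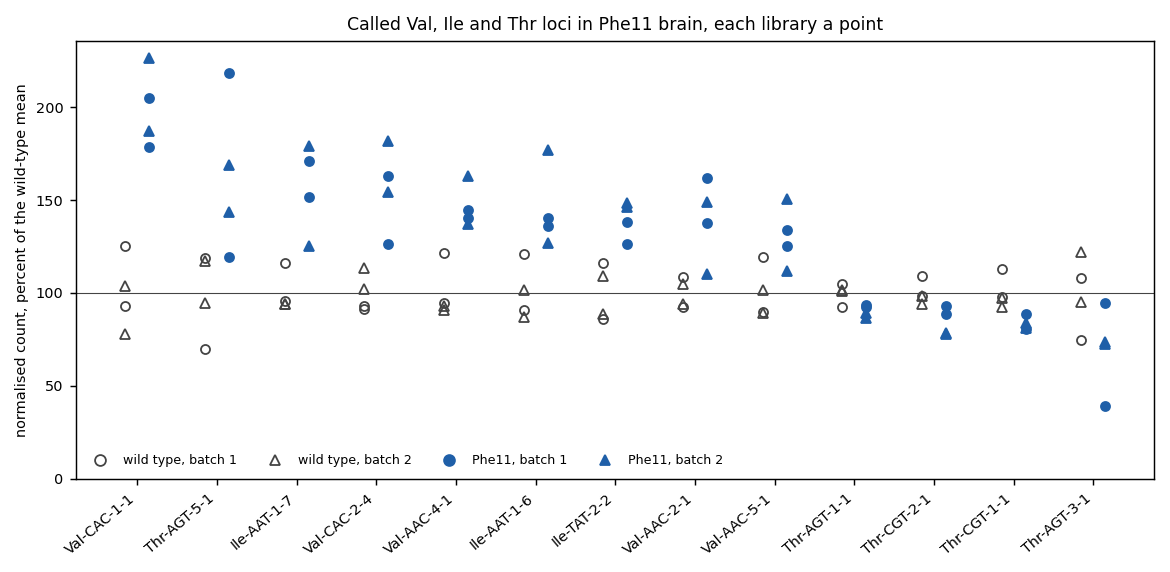
Normalised count as percent of the wild-type mean at the 13 members called in Phe11 brain, with every library a point (open, 4 wild types; filled, 4 Phe11; circles batch 1, triangles batch 2). The Phe11 points of tRNA-Val-CAC-1-1 lie highest, around 199% on average, and those of the threonine loci at the right lie mostly below 100%.

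Of the 45 members tested, 9 lay wholly above and 2 wholly below wild type, beside 14.1% and 13.7% of all loci tested (27.8% together). The 9 higher members had wild-type means of 14.7 to 92.4 and the 4 lower ones of 54.6 to 278, and over all loci the median wild-type mean was 30.8 for the 39 called higher and 169 for the 35 called lower. The 20 highest loci of each library held 24.1% to 24.8% of its reads in wild type and 22.5% to 23.3% in Phe11 brain, and the part of this in the changes was not tested. After the loess scaling, 6 members were called higher and 1 lower, beside 24 and 18 over all loci. The 6 include a member not called in limma as first fitted. The calls of tRNA-Ile-AAT-1-6 (adjusted p = 0.0767, limma), tRNA-Thr-AGT-5-1 (0.351), tRNA-Val-AAC-2-1 (0.158) and tRNA-Val-AAC-4-1 (0.198) were lost as well. With equal library totals 12 were called higher and 3 lower, where the split over all loci was 48 and 27. DESeq2 called 5 members higher and 1 lower, beside 20 and 14 over all loci, without tRNA-Ile-AAT-1-6 (0.0771), tRNA-Thr-AGT-5-1 (0.250), tRNA-Val-AAC-2-1 (0.152) and tRNA-Val-AAC-4-1 (0.194) among those called higher in limma. Limma without a trend did not call tRNA-Thr-AGT-5-1 or tRNA-Val-AAC-5-1 (adjusted p = 0.0574 each). All 13 changes had the same direction within batch 1 and within batch 2, although with 2 libraries per group batch 1 alone called 0 members, beside 6 of 261 loci. Batch 2 alone called 12 members, beside 59 of 264 loci (30 higher and 29 lower). Of these 12, 11 are among the 13, and tRNA-Thr-AGT-5-1 (adjusted p = 0.215, limma) and tRNA-Val-AAC-2-1 (0.234) were not called. Single libraries decided 7 of the 13 calls. That of tRNA-Thr-AGT-1-1 was lost without any 1 of 6 libraries (adjusted p from 0.0505 to 0.145) and that of tRNA-Thr-AGT-5-1 without any 1 of 5 (0.0508 to 0.191). tRNA-Val-AAC-2-1 lost its call without wild-type replicate 1 (0.0508) or Phe11 replicates 5 (0.0665) or 13 (0.0788), and tRNA-Val-AAC-5-1 without wild-type replicate 18 (0.0581) or Phe11 replicates 6 (0.0503) or 14 (0.0759). tRNA-Thr-AGT-3-1 lost it without wild-type replicate 16 (0.125) or Phe11 replicate 5 (0.164), tRNA-Ile-AAT-1-6 without Phe11 replicate 13 (0.0650) and tRNA-Val-AAC-4-1 without Phe11 replicate 14 (0.0803).

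In Phe11 liver 0 of 29 members tested passed in limma, beside 12.1% of 207 loci (5.31% higher and 6.76% lower), and 4 members had an unadjusted p under 0.05. edgeR and DESeq2 on recovered reads also called 0 members. The 2 members with the smallest p were identical copies of Ile-AAT-1. tRNA-Ile-AAT-1-6 had 13.1, 9.01, 8.05 and 16.5 in wild-type replicates 1, 3, 22 and 24 and 17.4, 19.8, 17.7 and 19.4 in Phe11 replicates 4, 6, 20 and 21 (154%, log2 change 0.68 ± 0.26, adjusted p = 0.0807, limma). tRNA-Ile-AAT-1-2 was also at 154% (0.62 ± 0.24, adjusted p = 0.0817). The groups did not overlap at either copy, with 40 and 42 reads over the wild-type livers. In all, 3 members lay wholly above wild type and 0 wholly below, beside 5.31% and 7.73% of the loci tested (13% together). Counting wild-type replicates 1 and 22 as 1 sample in the fit, 1 member passed, and leaving out 1 library gave 0 to 2, with 2 without wild-type replicate 24.

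In Phe21 liver a pair of identical Ile-AAT genes was lower and 3 loci for threonine and valine were higher than in wild type. Of 29 members tested, 5 passed in limma, 3 higher and 2 lower, beside 13.4% of 201 loci (8.46% higher and 4.98% lower), and the share of members was 17.2%. The median log2 change was 0.20 for the members and 0.10 for all loci. After the scaling along the level the split was 2 higher and 3 lower for the members and 10 and 19 over all loci, against 17 and 10 in limma as first fitted. edgeR gave 2 and 3 for the members and 11 and 23 over all loci, and limma with TMM scaling 4 and 2 and 28 and 9.

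tRNA-Ile-AAT-1-4 had the largest change, with 65.6, 84.0 and 78.6 in wild-type livers 1, 3 and 24 and 45.7, 35.3 and 25.1 in Phe21 livers 7, 8 and 9. Every Phe21 liver was below every wild-type liver, at 46.5% of the wild-type mean (log2 change -1.11 ± 0.16, SE; adjusted p = 1.18e-08, limma; exact permutation p = 0.1, the smallest that 3 against 3 libraries allow). It was called in all 16 alternatives, those that leave out a library included. tRNA-Ile-AAT-1-5 had 37.0, 42.0 and 37.6 in wild type and 21.7, 26.7 and 20.9 in Phe21 (59.4%, -0.73 ± 0.21, adjusted p = 0.00792, limma), again without overlap, and lost its call without wild-type replicate 3 (adjusted p = 0.0667).

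tRNA-Thr-CGT-2-1 had 53.7, 64.4 and 59.3 in wild-type livers and 101, 77.8 and 91.1 in Phe21 livers (152%, log2 change 0.59 ± 0.14, adjusted p = 6.28e-04, limma). tRNA-Val-AAC-5-1 had 41.8, 40.6 and 50.1 in wild type and 74.0, 62.1 and 68.0 in Phe21 (154%, 0.61 ± 0.15, adjusted p = 0.00148). Neither overlapped between the groups. In all, 9 members lay wholly above and 4 wholly below wild type, beside 20.4% and 10.9% of the loci tested (31.3% together). Both passed with any 1 library left out, although DESeq2 and limma without a trend called 0 of the 3 higher members. tRNA-Thr-CGT-1-1, at 131% (0.39 ± 0.13, adjusted p = 0.0214), overlapped with wild type and lost its call without wild-type replicate 1 (0.284), Phe21 replicate 8 (0.126) or Phe21 replicate 9 (0.305). Wild-type replicate 24 is of batch 2 and the other livers of this comparison are of batch 1. The 200 loci too low to be tested held 5.34% to 5.76% of the reads in wild-type livers and 2.56% to 2.76% in Phe21 livers, a difference whose part in these changes was not tested.

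In Phe21 brain 0 of 45 members passed in limma, as did 0 of 253 loci, with 9 members at an unadjusted p under 0.05. edgeR and DESeq2 on recovered reads called 0 members as well. The smallest p-values belonged to a pair of the loci called in liver. tRNA-Thr-CGT-2-1 had 173, 178 and 194 in wild-type brains 1, 2 and 3 and 205, 248 and 234 in Phe21 brains 7, 8 and 9 (126%, log2 change 0.33 ± 0.09, adjusted p = 0.0619, limma). tRNA-Ile-AAT-1-4 had 143, 126 and 138 in wild type and 102, 110 and 108 in Phe21 (78.5%, -0.34 ± 0.09, adjusted p = 0.0619). Neither locus overlapped between the groups. In all, 7 members lay wholly above and 5 wholly below wild type, beside 13.8% and 10.3% of the loci tested (24.1% together). With TMM scaling that leaves out the tRNA-Phe loci, 1 member passed, and leaving out 1 library gave 0 to 2, with 2 without Phe21 replicate 7.

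**Figure D4:**
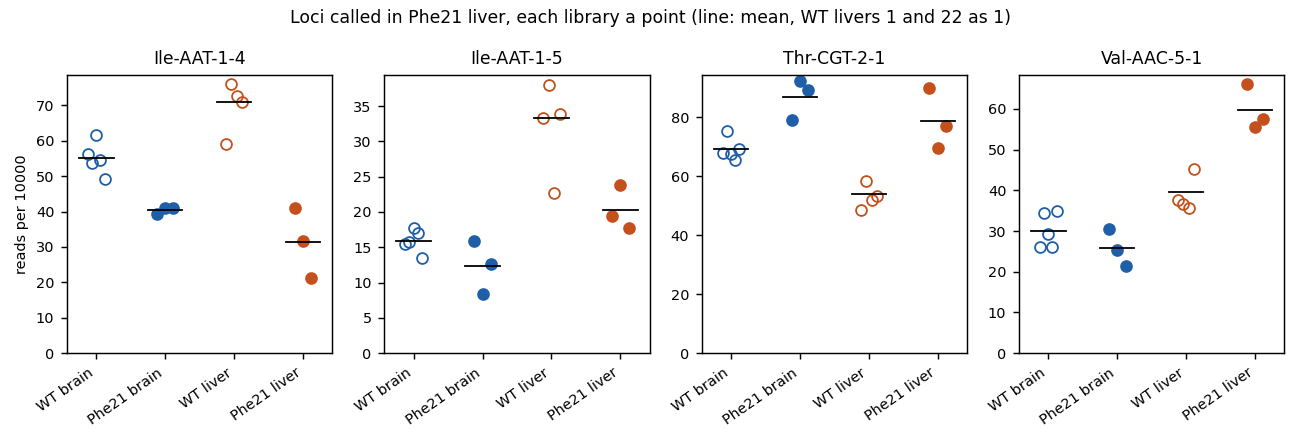
Reads per 10000 at 4 of the 5 members called in Phe21 liver, in wild-type and Phe21 brain and liver, every library a point and the mean a line, with wild-type livers 1 and 22 counted as 1 (open wild type, filled Phe21; 5, 3, 4 and 3 libraries). At tRNA-Ile-AAT-1-4 the Phe21 points lie below the wild-type points in both tissues, and at tRNA-Val-AAC-5-1 they lie above them in liver.

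In Phe31 brain 0 of 45 members passed in limma, beside 0.775% of 258 loci, and 3 had an unadjusted p under 0.05. Both edgeR and DESeq2 on recovered reads called 0 members. tRNA-Ile-AAT-1-5 had the smallest p, with 38.0, 33.0 and 38.7 in wild-type replicates 1, 2 and 3 and 22.7, 24.4 and 19.9 in Phe31 replicates 10, 11 and 12 (61.1%, log2 change -0.69 ± 0.21, adjusted p = 0.269, limma). tRNA-Thr-AGT-2-1 followed, at 128% (0.34 ± 0.14, adjusted p = 0.635). Of the members, 4 lay wholly above and 1 wholly below wild type, beside 6.2% and 5.04% of the loci tested (11.2% together). In the libraries labelled Phe31 from liver, 1 of 27 members passed in limma, beside 10.7% of 178 loci (1.69% higher and 8.99% lower). This was tRNA-Thr-TGT-3-1, with 35.4, 47.7 and 29.7 in wild-type replicates a, b and c and 24.8, 27.5 and 19.8 in those labelled Phe31 (63.9%, -0.61 ± 0.22, adjusted p = 0.0471, limma). Its groups did not overlap, and 1 member lay wholly above and 5 wholly below wild type, beside 6.74% and 16.9% of the loci tested (23.6% together). Its call was lost in 5 of 6 fits that left out 1 library, namely without wild-type a (0.145), b (0.435) or c (0.0559) or the labelled Phe31 a (0.0622) or c (0.222). With the scaling along the level, 2 other members were called higher and this one was not called, and the split over all loci was 6 higher and 10 lower, against 3 and 16.

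**Figure D5:**
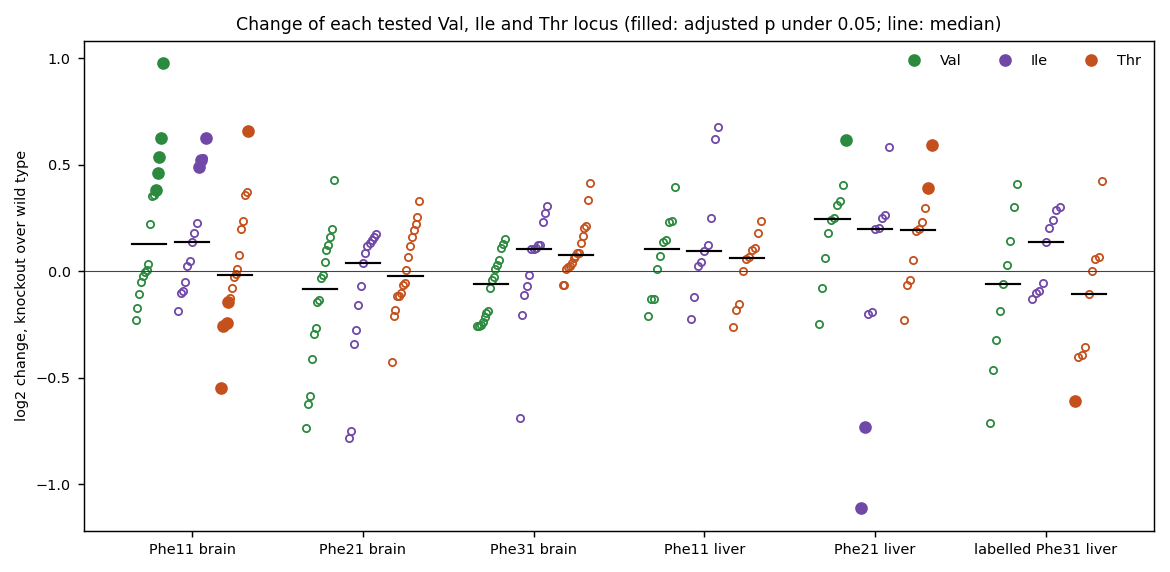
Log2 change, knockout over wild type, of every member tested in the 6 comparisons, by amino acid (Val green, Ile purple, Thr orange). Filled points passed an adjusted p of 0.05 in limma, and lines are medians. Phe11 brain holds 13 filled points, Phe21 liver 5, the liver libraries labelled Phe31 1 and the other comparisons 0.

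The 2 threonine CGT genes of high level were called lower in Phe11 brain and higher in Phe21 liver, calls that changed with the processing. In Phe11 brain both were lost after the scaling along the level, as given above. In Phe21 liver tRNA-Thr-CGT-1-1 lost its call after that scaling (adjusted p = 0.0727), in edgeR (0.177), in DESeq2 (0.468) and in limma without a trend (0.294), and tRNA-Thr-CGT-2-1 in DESeq2 (0.0810) and in limma without a trend (0.0584). In the brains of Phe11, Phe21 and Phe31, tRNA-Thr-CGT-1-1 was at 83.5%, 112% and 95.6% of wild type, and in the matching livers at 93.9%, 131% and 105%, the last being those labelled Phe31. tRNA-Thr-CGT-2-1 was at 84.4%, 126% and 106% in the brains and at 105%, 152% and 133% in the livers. The comparisons share wild-type libraries within each tissue, so these values are not independent of each other. tRNA-Val-AAC-5-1, which rose in Phe11 brain and Phe21 liver, was at 83.0% in Phe21 brain and 108% in Phe11 liver. tRNA-Val-CAC-1-1, which rose in Phe11 brain, was at 65.6% in Phe21 brain and 89.1% in Phe31 brain. None of these values in the other comparisons passed the test. In liver tRNA-Val-CAC-1-1 was too low to be tested. Its normalised counts in the Phe11 liver comparison were 0, 10.3, 0 and 7.20 in wild type and 12.3, 8.32, 9.74 and 9.49 in Phe11. In the Phe21 liver comparison they were 0, 11.2 and 7.98 in wild type and 3.01, 2.36 and 4.19 in Phe21.

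Whether a change differed between the tissues was tested as an interaction in edgeR on recovered reads, given as the log2 change in liver minus that in brain. For Phe11, 3 of 43 members passed, beside 9.73% of 257 loci (2.72% more positive and 7% more negative). For Phe21, 4 of 42 passed, beside 10.2% of 245 loci (4.9% and 5.31%). Of these members, 2 for Phe11 and 2 for Phe21 had a mean under 10 reads in liver and were tested through brain alone, where they are high, so the direction of these counts is not read as a result. tRNA-Val-AAC-5-1 had an interaction of 0.96 ± 0.22 (SE; adjusted p = 9.43e-04, edgeR) for Phe21, at 154% of wild type in Phe21 liver and 83.0% in Phe21 brain. tRNA-Ile-AAT-1-4 had -0.61 ± 0.19 (adjusted p = 0.0257), lower in both tissues and more so in liver. This call was lost without wild-type liver replicates 3 (0.114) or 24 (0.0911) or Phe21 liver replicates 8 (0.0653) or 9 (0.0701), with no filter (0.0585) and in DESeq2 (0.0577). tRNA-Ile-AAT-1-3 had -0.39 ± 0.13 for Phe11 (adjusted p = 0.0430), a call lost in 12 of 16 fits that left out 1 library (adjusted p from 0.0510 to 0.181) and in DESeq2.

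The other 4 passing interactions were at loci tested through brain alone, with at most 15 reads in any liver library, and their size and p are not read as results. tRNA-Ile-TAT-2-2, which passed for both lines, had 15, 4, 6 and 10 reads in wild-type liver replicates 1, 3, 22 and 24 against 3, 3, 3 and 6 in the Phe11 livers and 3, 1 and 0 in the Phe21 livers. tRNA-Val-AAC-2-1, which passed for Phe11, had 21 reads over 4 wild-type livers and 10 over 4 Phe11 livers. tRNA-Thr-TGT-1-1, which passed for Phe21, had 13 reads over 3 wild-type livers and 2 over 3 Phe21 livers. These loci have a higher level in wild-type brain than in liver. The brain-enriched tRNA-Arg-TCT-4-1 had 4 to 9 reads in each of these wild-type livers and 1 to 3 in each Phe11 and Phe21 liver, and the part of this in these values was not tested.

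The authors' consensus peaks of nucleosome-free reads, made once per comparison from both groups, were overlapped by at least 1 base with RefSeq tRNA genes on GRCm38.p6. In the brain sets, 45, 42 and 44 of the 55 genes for valine, isoleucine and threonine tRNAs had a peak for Phe11, Phe21 and Phe31, which is 81.8%, 76.4% and 80.0%, beside 60.5%, 56.5% and 57.5% of all 402 tRNA genes. In the liver sets it was 37, 29 and 28 of 55, or 67.3%, 52.7% and 50.9%, beside 53.7%, 47.3% and 43.8%. Threonine had the highest share in each set, from 94.1% of its 17 genes in Phe11 brain to 58.8% in Phe21 liver. The sets differ in their number of peaks, from 101338 to 269579, and their shares are given as counts without a test.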

How the data were processed

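The authors trimmed reads with Trim Galore (0.6.4) and cutadapt (1.18) and aligned them with Bowtie2 (2.4.1) to the mouse build GRCm38.p6, keeping up to 20 alignments per fragment. They kept nucleosome-free fragments of at most 175 nt with a mapping quality of at least 30 and counted them over high-confidence tRNA genes with 50 nt on each side (featureCounts 2.0.0). The deposited values are a signal, the count divided by a DESeq2 (1.30.0) size factor for each library, with 1 table per comparison. Deposited peak positions, from Genrich (0.6) and DiffBind (3.0.8), give intervals without a level. The tables also hold the authors' fold changes and p-values, which were not used.

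Whole reads were recovered from the steps between low values. The members and lists were chosen with earlier results of these data known. Each knockout comparison was fitted in limma (3.58.1, with a trend) on log2(normalised count + 1) over all loci with a mean of at least 10, with a batch term for Phe11, two-sided, and adjusted by Benjamini-Hochberg over all loci tested. The design set out for Phe21 liver took its libraries as 1 batch, but wild-type replicate 24 is of batch 2. A fold change on this scale understates the change of low loci. Tissues and interactions were fitted on the recovered reads by the quasi-likelihood test of edgeR (4.0.16, TMM, batch term), with wild-type livers 1 and 22 as separate libraries. DESeq2 (1.42.0) was an alternative. R 4.3.3 and Python 3.11.15 were used, and the scripts were tested on simulated data. Reads per 10000 are reads at a locus per 10000 over all tRNA loci. Libraries held 4719 to 35565 reads over these loci, so low liver loci rest on few reads.

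Groups came from the labels. The columns of the labelled Phe31 liver table carry no replicate number, were mapped by group only, and are called a, b and c. Named with values were members called in a knockout, interaction or tissue comparison (up to 10 each way between tissues), the highest locus of each anticodon, and the 2 members with the smallest p where none was called. With 3 libraries against 3, an exact permutation test cannot go below 0.1. Not every sequence matched is reported here.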

Additional observations from a re-analysis of the deposited data

Results flagged for a closer look

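In the Phe11 brain comparison, wild-type replicate 3 stood apart from the other 3 wild-type brains by Dixon's test at tRNA-Ile-AAT-1-7, with a normalised count of 35.8, and at tRNA-Val-AAC-4-1, with 29.4. These were 2 of 81 groups tested, and chance alone picks out about 1 in 20. Both values lay below every Phe11 brain.

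The interaction of line and tissue passed an adjusted p of 0.05 in edgeR for 3 members in Phe11 and 4 in Phe21, or 6.98% and 9.52% of the members tested beside 9.73% and 10.2% of all loci, so the members were not above the background. For Phe11 the log2 change in liver minus that in brain was -0.39 at tRNA-Ile-AAT-1-3, -2.42 at tRNA-Ile-TAT-2-2 and -2.23 at tRNA-Val-AAC-2-1. For Phe21 it was -0.61 at tRNA-Ile-AAT-1-4, -3.47 at tRNA-Ile-TAT-2-2, -3.08 at tRNA-Thr-TGT-1-1 and 0.96 at tRNA-Val-AAC-5-1. The values at tRNA-Ile-TAT-2-2, tRNA-Val-AAC-2-1 and tRNA-Thr-TGT-1-1 rest on few liver reads at loci tested through brain alone, where they are high, and are not read as a difference between the tissues.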

How the results depend on the processing

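Over 61 named results and 1244 recomputed values, 1072 kept their direction and their side of the threshold, 160 kept the direction and lost the call, 6 gained a call and 6 turned the direction. Those 6 were brain over liver log2 differences. Against the livers of batch 3 alone tRNA-Ile-AAT-1-4 was 0.35 (-0.46 as reported) and tRNA-Thr-CGT-1-1 -0.14 (0.33). Within batch 1 tRNA-Thr-TGT-3-1 was 0.0032 (-0.15) and tRNA-Val-TAC-1-3 0.0225 (-0.14), and the latter was 0.0298 and 0.0267 in the fits with a replicate block, but -0.41 (adjusted p = 0.0179, edgeR) with the livers of batch 3 added and -0.79 (3.48e-05) against those alone. Where no cause is named, the cause was not tested.

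Calls are given over all loci, then over members. Phe11 brain (74 and 13) had 34 and 6 with DESeq2, 42 and 7 after loess along the level (an alternative added after the data were seen) and 6 and 0 in batch 1 alone. Phe21 brain (0 and 0) had 9 and 1 with TMM, and 0 to 9 and 0 to 2 with 1 library left out. Phe31 brain (2 and 0) had 1 over all loci with a mean of at least 30, TMM, equal totals, limma without trend or DESeq2, and 1 to 3 with 1 library left out. Phe11 liver (25 and 0) had 15 over all loci with a mean of at least 30, 12 and 1 without trend, 11 with DESeq2, 8 in batch 1, 5 in batch 2, 3 members without a filter, 1 member with replicates 1 and 22 as 1 sample, and 14 to 32 and 0 to 2 with 1 library left out. Phe21 liver (27 and 5) had 43 and 9 without a filter, 8 and 2 without trend, and 17 and 2 with DESeq2. The livers labelled Phe31 (19 and 1) had 1 and 0 without trend or with DESeq2, 0 members without a filter, with equal totals or in edgeR, 2 members with TMM or loess, and 5 to 14 and 0 to 1 with 1 library left out. Brain against liver (174 and 29) had 19 members in batch 1 alone. The Phe11 interaction (25 and 3) had 16 to 28 and 1 to 4 with 1 library left out. The Phe21 interaction (25 and 4) had 12 and 2 with DESeq2, and 12 to 24 and 2 to 5 with 1 library left out.

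Same-numbered brain and liver libraries did not deviate together (r from -0.099 to 0.045 over 201 loci for 6 numbers). Wild-type brains 1 and 3 differed by about the sampling noise (chi-square per degree of freedom 0.930), as did wild-type livers 1 and 3 (1.15). With so little spread these r cannot tell whether numbers pair samples, and numbers were not taken to do so. With a replicate block over wild-type replicates 1 and 3, brain against liver had 104 and 17 calls, over 6 numbers 162 and 27, and the Phe21 interaction 17 and 3, without tRNA-Ile-AAT-1-4 (adjusted p = 0.0953, edgeR) and tRNA-Thr-TGT-1-1 (0.0944).

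Without its highest locus, the share of reads in wild-type brain was 1.67% for Ile-AAT, 1.75% for Ile-TAT, 1.33% for Thr-AGT, 0.996% for Thr-CGT, 0.853% for Thr-TGT, 0.850% for Val-AAC, 0.931% for Val-CAC and 0.524% for Val-TAC. In wild-type liver it was 2.02%, 0.970%, 1.72%, 0.610%, 0.867%, 0.874%, 0.850% and 0.472% in the same order. Low read numbers in liver left 23 of 52 members untested in Phe11 and in Phe21 and 25 in the livers labelled Phe31, against 7 in brain.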
